A study of Mus musculus with 24 samples.

Results

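Livers of young mice were compared after 60 min and after 30 min of partial hepatic ischemia, which stops blood flow to some lobes while the others stay perfused. The comparison rests on the 3 arrays labelled young with 60 min and the 3 labelled young with 30 min, 6 of the 24 arrays of the series, and on all 26180 probe sets of the array. Young means an age of 4 to 5 weeks, and the adult mice had an age of 12 to 14 months. Sham operation and 90 min of ischemia were further groups at either age, also with 3 arrays each. The tissue, put into RNAlater, came from the left and median lobes, and the labels name neither strain nor sex nor a genetic change. The sample titles write the times as 30/0, 60/0 and 90/0 without saying what the second part stands for. Each deposited value is a ratio to the mean over the 3 age-matched sham arrays, so a ratio of 1 is the mean level in sham liver. The sham scaling is common to both young groups and cancels in their difference. The ratios keep no brightness, so the presence of liver markers in the tissue could not be checked, and levels of different genes cannot be compared.

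In ischemia the cells of the liver lose oxygen and substrate and switch to anaerobic energy metabolism. Known early responses of stressed liver cells are the induction of immediate early transcription factors such as the AP-1 family, and of heat shock proteins, which are chaperones controlled by the heat shock factor HSF1. Liver is also the main site of cholesterol synthesis, under control of the sterol-regulated transcription factor SREBP2, and it has a strong circadian clock. Most of the liver's mass is hepatocytes. Kupffer cells (its resident macrophages), hepatic stellate cells (vitamin A-storing pericytes) and sinusoidal endothelium make up most of the rest.

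No transcript passed the test between 30 and 60 min. Of 26180 probe sets, 0 (0%) had an adjusted p under 0.05 in limma with Benjamini-Hochberg adjustment, and the lowest adjusted p was 0.618. An unadjusted p under 0.05 was found for 1329 probe sets (5.08%). The values below therefore describe which genes lay higher or lower on these arrays, and none of them is a call. Log2 differences (60 min minus 30 min) ran from -1.43 to 1.70, with a median of 0.01 over 14351 named genes, of which 52.3% lay above 0. The median standard error of a difference was 0.12, and the median 95% interval reached 0.25 to either side. For 95% of probe sets it reached no further than 0.47. A difference of over 1 was found for 13 probe sets and one under -1 for 4. Among the genes, 369 (2.57%) had an unadjusted p under 0.05 and were higher at 60 min, and 379 (2.64%) were lower. The 3 arrays of 60 min lay wholly above the 3 of 30 min in 743 genes (5.18%) and wholly below in 761 (5.3%).

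The 6 arrays had median ratios of 0.9733 to 0.9932, and ratios ran from 0.0355 to 6.64. No pair of the 6 held the same values: the SD of the log2 difference between a pair was 0.20 to 0.28. The sample titles carry a code of 2 parts. The first part was shared by replicate 1 of 30 min and replicate 1 of 60 min, and by no other pair of arrays across these groups. The number in its second part was 3, 2 and 3 on the 30 min arrays and 4 on each 60 min array, while the young sham arrays had 5, 5 and 1. The labels do not say what the code stands for. For some genes and lists, not for all, the fits that hold either part are given below. Genes shown without them can move as well. The difference of Klf10 went from 0.87 to 0.30 with the number as a covariate and to 0.28 with the first part as a block. That of Inhbe went from 0.67 to 0.29 and 0.26. Because the number never overlaps between 30 and 60 min, its part cannot be told apart from that of the time.

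Of the 12 AP-1 factors, immediate early regulators that bind DNA as dimers of Fos and Jun proteins, 10 lay higher at 60 min than at 30 min, most by little. The difference of Fos, the founding member, was -0.30 ± 0.72, from 1.46 and 1.15 against sham on the log2 scale. For Junb, an AP-1 subunit of the Jun class, the ratios were 0.4, 0.294 and 0.373 at 30 min and 0.861, 0.645 and 0.56 at 60 min. All 3 arrays of 60 min were above all 3 of 30 min, and all 6 were under the sham arrays, which had 0.898, 1.12 and 0.978. The log2 difference was 0.94 ± 0.39 (SE, n = 3 per group; 95% interval 0.14 to 1.75; limma adjusted p = 0.955). Fosl2, a Fos-related partner, had ratios of 0.654, 0.673 and 0.608 against 0.789, 0.755 and 0.708, a difference of 0.22 ± 0.09. Fosl1, another member, was at 0.22 ± 0.10 with overlapping groups. Of the 12 factors, 3 had an unadjusted p under 0.05, all higher, against 2.57% of all genes, and the median difference was 0.11. That number of 3 was 0 without replicate 1 of 60 min. Of the 20 Egr, Nr4a and Klf factors, 0 had an unadjusted p under 0.05. Klf10, a zinc finger factor of TGF-beta signalling, had ratios of 0.23, 0.157 and 0.259 against 0.281, 0.585 and 0.347, all 3 higher at 60 min, with a difference of 0.87 ± 0.60.

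Other signalling genes were low at 30 min and closer to sham at 60 min. Fkbp5, a co-chaperone of the glucocorticoid receptor that glucocorticoids induce, had ratios of 0.384, 0.41 and 0.395 at 30 min and 0.647, 0.731 and 0.856 at 60 min. The groups did not overlap, and the difference was 0.90 ± 0.37 (95% interval 0.12 to 1.68). At 90 min the ratios of Fkbp5 were 0.512, 0.398 and 0.396, near those of 30 min. Map3k5, the stress kinase ASK1, was at 0.433, 0.425 and 0.608 against 0.644, 0.736 and 1.49, a difference of 0.89 ± 0.35 that was 0.51 to 1.12 with any 1 of the 6 arrays left out. Il1r1, the interleukin 1 receptor, was at 0.455, 0.394 and 0.324 against 0.693, 0.559 and 0.624 (difference 0.69 ± 0.30). Klb, the beta-klotho co-receptor for FGF21 and FGF15/19 in hepatocytes, was at 0.671, 0.727 and 0.557 against 0.926, 1.34 and 0.946 (difference 0.70 ± 0.16, limma adjusted p = 0.627). Cdip1, a p53-controlled apoptosis gene, was at 0.599, 0.449 and 0.478 against 0.779, 0.979 and 0.86 (difference 0.78 ± 0.22). Fam214a was at 0.532, 0.615 and 0.493 against 0.874, 0.917 and 1.24. Its difference of 0.87 ± 0.20 had an adjusted p of 0.618, the lowest in the limma fit and shared with other probe sets. At 60 min Klb, Cdip1 and Fam214a lay near the sham mean of 1, while all 3 arrays of Il1r1 and of Fkbp5 stayed under it. At 90 min the mean ratios of Map3k5, Il1r1, Klb, Cdip1 and Fam214a were 0.526, 0.417, 0.788, 0.64 and 0.802. Each was under its 60 min mean of 0.958, 0.625, 1.07, 0.872 and 1.01. The young 90 min arrays all have the title code number 2.

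A smaller set lay near sham at 30 min and above it at 60 min. Id3, an inhibitor of basic helix-loop-helix factors and a target of BMP signalling, had ratios of 0.982, 0.797 and 0.81 against 1.71, 1.52 and 1.4, a difference of 0.84 ± 0.28. Inhbe, the liver-made activin subunit beta E, had 1.16, 0.669 and 0.98 against 1.37, 1.86 and 1.19, a difference of 0.67 ± 0.31. Tedc2, a gene of centriole assembly, was at 0.74, 0.55 and 0.44 against 0.782, 1.06 and 1.02 (0.75 ± 0.22), which places it with the genes that were low at 30 min. At 90 min the mean ratios of Id3, Inhbe and Tedc2 were 0.856, 0.719 and 0.748, under their 60 min means of 1.55, 1.47 and 0.957. Gadd45g, a growth arrest and stress gene, went the other way. Its ratios were 2.35, 2.58 and 3.19 at 30 min and 0.671, 0.567 and 2.57 at 60 min. The 60 min arrays disagreed among themselves: replicate 3 lay within the 30 min range and the other pair under sham. Its difference of -1.43 ± 0.72 was the lowest of all probe sets and its 95% interval, -2.93 to 0.07, held 0. It was -2.12 to -1.03 with any 1 array left out.

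**Figure D1:**
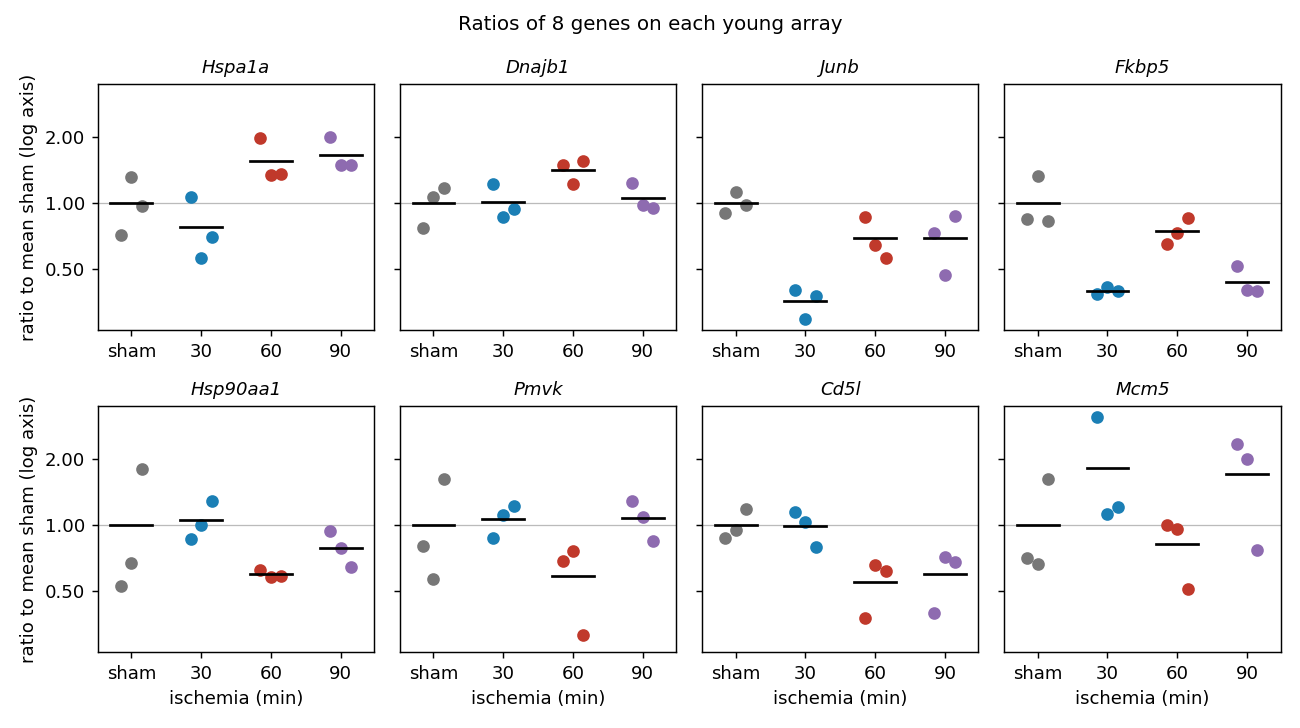
Ratio to the mean of the young sham arrays (log axis) of 8 genes in each of the 12 young arrays, by ischemia time in min; each point is 1 array and each bar the arithmetic mean of 3. In all 8 genes the 60 min points do not overlap the 30 min points. Hspa1a, Dnajb1, Junb and Fkbp5 are higher at 60 min, and Hsp90aa1, Pmvk, Cd5l and Mcm5 lower. All but Dnajb1 were picked by a rule that requires no overlap. Over all genes, 5.18% were wholly higher at 60 min and 5.3% wholly lower.

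Heat shock genes lay on either side of 0 between 30 and 60 min, 11 above and 9 below. Hspa1a and Dnajb1 were among those above, and Hsp90aa1 and Hspb1 among those below. Hspa1a, the inducible cytosolic HSP70, had ratios of 1.06, 0.559 and 0.7 at 30 min and of 1.99, 1.34 and 1.36 at 60 min, against 0.716, 1.32 and 0.965 in sham liver. All 3 arrays of 60 min were above all 3 of 30 min and above each sham array. The mean ratio was 0.772 ± 0.256 (SD, n = 3) at 30 min and 1.56 ± 0.373 (SD, n = 3) at 60 min, a log2 difference of 1.04 ± 0.25 (SE; 95% interval 0.52 to 1.57; limma adjusted p = 0.684), or 2.06-fold. It was 0.84 to 1.30 with any 1 of the 6 arrays left out, 1.02 with the code's number as a covariate and 0.97 with the code's first part as a block. At 90 min the ratios were 2, 1.5 and 1.49, alike those of 60 min. Dnajb1, the HSP40 co-chaperone of HSP70, was at 1.22, 0.864 and 0.943 against 1.49, 1.22 and 1.56, a difference of 0.51 ± 0.19. The lowest 60 min array and the highest 30 min array both rounded to 1.22, so the gap between the groups was small.

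Bag3, an HSP70 co-chaperone of selective autophagy, was at 1.66, 1.07 and 1.12 against 2.01, 1.55 and 1.57 (difference 0.43 ± 0.19), with an overlap. Hsf1 itself, the heat shock factor, was at 0.988, 0.933 and 0.914 against 1.09, 1.07 and 1.04, a difference of 0.18 ± 0.08 without overlap. Bag3 and Hsf1 were chosen for mention after their values were seen. Hsp90aa1, the inducible cytosolic HSP90, was at 0.865, 0.997 and 1.29 against 0.622, 0.578 and 0.581. Its groups did not overlap, and its difference was -0.80 ± 0.32 (95% interval -1.47 to -0.14). With the code's first part as a block this difference was 0.01, and between the pair of arrays that share that part it was -0.48. The sham ratios of Hsp90aa1 were 0.525, 0.669 and 1.81, so the 60 min arrays lay within the sham range. Hspb1, the small heat shock protein HSP27, was at 0.843, 1.37 and 1.49 against 0.995, 0.841 and 0.725, a difference of -0.50 ± 0.20 with overlap. With the code's first part as a block the difference of Hspb1 was -0.09, and between the pair of arrays that share that part 0.24. Of the 20 heat shock genes measured, 4 had an unadjusted p under 0.05 and were higher (Hspa1a, Dnajb1, Bag3 and Hsf1), and 2 were lower (Hspb1 and Hsp90aa1), against 2.57% and 2.64% of all genes. The number higher was 1 without replicate 2 of 30 min, and the number lower was 0 without replicate 3 of 30 min. The list's median was 0.13, with 11 genes above 0 and 9 below.

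Hspa1a and Hspb1 lay on opposite sides of 0 in the fit without the code, though Hspb1 was at only -0.09 with the block. Their promoters are shown beside each other, to 250 bases before the annotated start. Capitals mark matches to GAANNTTC, the core of the heat shock element, which reads the same on both strands. Both sequences are from RefSeq (GRCm38.p6), written 5′ to 3′ on the strand of the gene. That of Hspa1a is at chr17:34972157-34972406 on the minus strand and that of Hspb1 at chr5:135887669-135887918 on the plus strand.
Hspa1a: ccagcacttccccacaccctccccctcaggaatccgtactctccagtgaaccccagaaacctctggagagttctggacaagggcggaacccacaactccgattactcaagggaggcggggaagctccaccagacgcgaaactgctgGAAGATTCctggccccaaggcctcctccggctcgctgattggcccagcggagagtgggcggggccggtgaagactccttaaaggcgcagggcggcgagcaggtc
Hspb1: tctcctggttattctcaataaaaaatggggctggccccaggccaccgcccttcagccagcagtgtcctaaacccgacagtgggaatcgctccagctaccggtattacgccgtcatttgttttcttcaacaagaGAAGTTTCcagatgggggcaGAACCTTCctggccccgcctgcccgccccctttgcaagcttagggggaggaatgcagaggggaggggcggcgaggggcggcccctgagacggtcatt
The Hspa1a window held 1 match, which begins 104 bases before the start, and the Hspb1 window held 2, at 117 and 97 bases before it. Such a match was found in 6.69% of the 32851 promoter windows of the same length. It was found in 5 of the 18 heat shock genes that had a window (Dnaja1, Dnaja4, Hspa1a, Hspa1b and Hspb1). The former share is per window and the latter count per gene, where any window of a gene with a match counts, so they are on unlike units. The match is a description of these letters and not evidence of binding.

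Genes of cholesterol synthesis lay lower at 60 min, as a group and with a wide spread between arrays. Pmvk, phosphomevalonate kinase, which acts early in the pathway, had ratios of 0.87, 1.11 and 1.22 at 30 min and 0.682, 0.763 and 0.313 at 60 min. The 60 min arrays were under all 30 min arrays, while the sham arrays, at 0.801, 0.565 and 1.63, spanned both groups except for replicate 3 of 60 min. The difference was -0.95 ± 0.36 (SE; 95% interval -1.69 to -0.21; limma adjusted p = 0.955), from means of 1.07 ± 0.177 and 0.586 ± 0.24 (SD, n = 3). It was -1.19 to -0.55 with any 1 of the 6 arrays left out. At 90 min the ratios of Pmvk were 1.29, 1.09 and 0.844, nearer to those of 30 min. Lss, lanosterol synthase, which closes the sterol rings, was at 0.839, 1.26 and 1.4 against 0.836, 0.879 and 0.42, a difference of -0.76 ± 0.34 with overlap. Cyp51, which demethylates lanosterol, was at 0.758, 1.1 and 0.894 against 0.659, 0.799 and 0.37, a difference of -0.65 ± 0.29 with overlap. In all 3 genes replicate 3 of 60 min was the lowest of the 6 arrays. Lss and Cyp51 were chosen for mention after their values were seen.

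Of the 21 measured genes of the list, 19 lay below 0 and 5 had an unadjusted p under 0.05, all lower, against 2.64% of all genes. The median difference was -0.41. On single arrays the list's median log2 ratio was -0.35, 0.14 and 0.04 at 30 min and -0.26, -0.18 and -0.58 at 60 min, so that replicate 1 of 30 min lay within the 60 min range. On the sham arrays it was -0.14, -0.45 and 0.50, a range that holds 5 of these 6 values. The median was -0.58 without replicate 1 of 30 min and -0.18 without replicate 3 of 60 min, and the number at unadjusted p under 0.05 ran from 1, without replicate 2 of 30 min, to 7. With the code's number as a covariate the median was -0.14, with the code's first part as a block 0.15, and between the pair of arrays that share that part 0.06. In the fits with the number and with the block Pmvk was at -0.68 and -0.21, Cyp51 at -0.42 and -0.07, and Lss at -0.42 and 0.07. Of 16 genes of fatty acid synthesis 12 lay below 0, with a median of -0.20. Against 2.64% of all genes, 2 of the 16 were lower with an unadjusted p under 0.05. These were Me1, the malic enzyme that supplies NADPH, at -0.64 ± 0.27, and Gpam, the first acyltransferase of glycerolipid synthesis, at -0.71 ± 0.31. With the block this median was 0.01.

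In the adult mice, on other arrays, most of the list lay lower at 60 min too. The cholesterol list had a median of -0.47 between adult 60 and 30 min, with 20 of 21 genes below 0. Of these, 7 had an unadjusted p under 0.05 and were lower, where 6.87% of all genes did so in adults. The adult fall was not particular to this list. All 46 oxidative phosphorylation genes and 37 of 39 proteasome subunits also lay below 0 in adults, with medians of -0.33 and -0.31. Not every list fell, as adult medians were -0.03 for Kupffer markers and 0.20 for clock genes. Adult Lss was at 0.804, 1.05 and 1.17 against 0.535, 0.71 and 0.619, a difference of -0.69 ± 0.34 without overlap. Adult Pmvk was at 0.688, 0.97 and 1.18 against 0.735, 0.576 and 0.411, a difference of -0.72 ± 0.36 with overlap. The difference between the ages (adult minus young) was 0.23 ± 0.50 for Pmvk and 0.07 ± 0.48 for Lss. It had an unadjusted p under 0.05 for 1 of the 21 genes, against 4.28% of all genes. The adult 30 and 60 min arrays also had different title code numbers, 3 and 4.

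**Figure D2:**
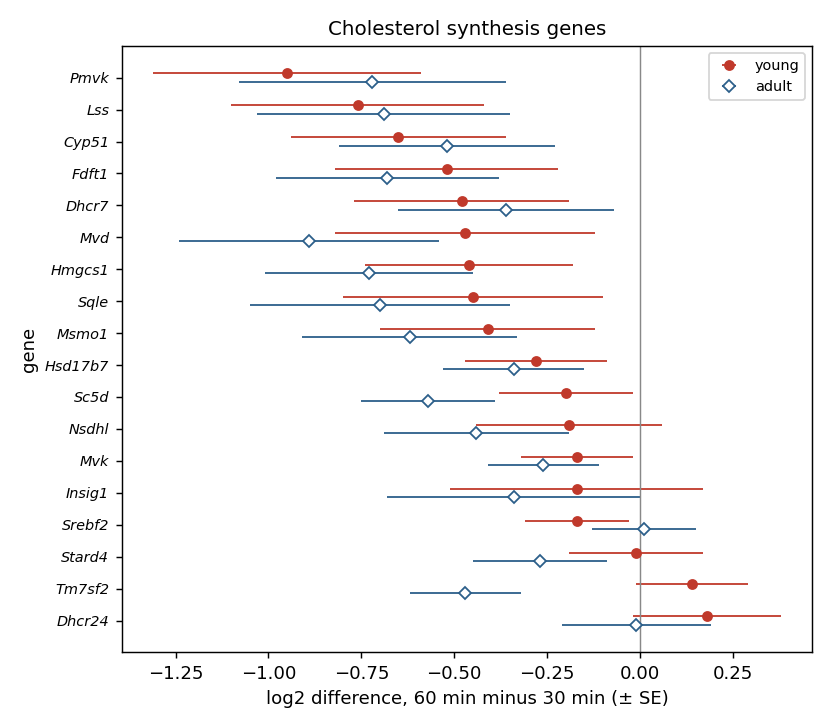
Log2 difference between 60 and 30 min for 18 genes of cholesterol synthesis; filled circles are young and open diamonds adult mice, and bars are ± SE from limma with 3 arrays a group. Most points of either age lie left of 0, with 16 young and 17 adult values below it.

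Markers of Kupffer cells lay lower at 60 min in all 14 genes measured. Cd5l, a macrophage-secreted scavenger receptor family protein, had ratios of 1.15, 1.03 and 0.793 at 30 min and 0.373, 0.656 and 0.616 at 60 min, a difference of -0.88 ± 0.29 (95% interval -1.49 to -0.27; limma adjusted p = 0.944). Vsig4, the complement receptor of Kupffer cells, was at 0.854, 0.921 and 0.678 against 0.324, 0.631 and 0.522, a difference of -0.77 ± 0.32. Folr2, a folate receptor of resident macrophages, was at 1.06, 1.09 and 0.932 against 0.667, 0.707 and 0.752 (difference -0.54 ± 0.15), and the lectin Fcna at 0.937, 0.984 and 0.786 against 0.566, 0.692 and 0.631 (difference -0.52 ± 0.16). In each of these genes the groups did not overlap. Replicate 3 had the lowest ratio of the 30 min arrays in all 4. With bulk tissue, fewer cells of a type and less RNA per cell cannot be told apart.

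Of the 14 markers, 6 had an unadjusted p under 0.05, all lower, against 2.64% of all genes, and the groups did not overlap in 6, against 5.3%. The median difference was -0.42. On single arrays the list's median log2 ratio was 0.10, 0.04 and -0.34 at 30 min and -0.76, -0.36 and -0.38 at 60 min. Replicate 1 of 60 min was the lowest and replicate 3 of 30 min lay close to the other 60 min arrays. Without replicate 1 of 60 min the median was -0.25 and 2 markers had an unadjusted p under 0.05, and without replicate 3 of 30 min the median was -0.57. Between the pair of arrays whose titles share the first part it was -0.86, and without that pair -0.17. With the title code number or the block in the fit it was -0.41 and -0.47.

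Further genes of macrophages and phagocytes were among the 12 lowest of those with an unadjusted p under 0.05 and no overlap between the times. Axl, a receptor kinase by which macrophages take up dying cells, was at 1.1, 0.936 and 0.857 against 0.423, 0.583 and 0.637 (difference -0.83 ± 0.22). Cybb, the catalytic subunit of the phagocyte NADPH oxidase, was at 0.961, 0.907 and 0.741 against 0.343, 0.561 and 0.671 (difference -0.77 ± 0.32). Slc15a3, a lysosomal peptide and histidine transporter of immune cells, was at 0.975, 1.16 and 0.92 against 0.384, 0.719 and 0.727 (difference -0.79 ± 0.22). In each of the 3, as in Cd5l and Vsig4, replicate 1 of 60 min was the lowest of the 6 arrays. The chemokine Ccl6, made by myeloid cells, was at 0.699, 0.884 and 0.601 against 0.34, 0.565 and 0.556 (difference -0.60 ± 0.24). It was 1 of 3 of the 19 chemokines with an unadjusted p under 0.05, all lower, against 2.64% of all genes. The list as a whole had a median of -0.01, with 9 genes above 0 and 10 below. The others were Cxcl12, with 3 probe sets at -0.31, -0.45 and -0.34, and Ccl25 at -0.32 ± 0.12.

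Markers of stellate cells lay lower as well, by less. Rgs5, which dampens G protein signals in pericytes, was at 0.789, 0.982 and 1.22 against 0.584, 0.605 and 0.685, a difference of -0.65 ± 0.20. Colec11, a collectin made by stellate cells, was at 0.802, 0.919 and 0.68 against 0.469, 0.626 and 0.531 (difference -0.56 ± 0.18), and Reln, the matrix protein reelin, at 0.804, 0.935 and 0.896 against 0.564, 0.652 and 0.75 (difference -0.43 ± 0.16). None of these 3, the markers of lowest p in the list, overlapped between the times. Over the list, 4 of 15 markers lay wholly lower at 60 min, against 5.3% of all genes. Of 15 markers, 13 lay below 0 and 7 had an unadjusted p under 0.05, all lower, against 2.64% of all genes. The list's median was -0.22, and its median log2 ratio on single arrays was -0.31, -0.07 and -0.11 at 30 min and -0.44, -0.33 and -0.35 at 60 min, with no overlap. Without replicate 1 of 60 min, 2 markers had an unadjusted p under 0.05 and the median was -0.12. The collagens Col1a1 and Col3a1 were at 0.14 and -0.02.

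The lists of other cell types had medians closer to that of all genes. Of 16 endothelial markers 0 had an unadjusted p under 0.05, with a median of -0.04; the sinusoidal scavenger receptor Stab2 was at 0.23 ± 0.12. Of 16 hepatocyte markers 14 lay above 0, with a median of 0.09, and 0 had an unadjusted p under 0.05. Medians were 0.04 for 10 cholangiocyte, 0.05 for 18 T and NK cell, 0.18 for 7 B and plasma cell and 0.07 for 12 neutrophil markers. Cd2, a T and NK cell adhesion receptor, at 0.25 ± 0.11, was the 1 gene of these 4 lists with an unadjusted p under 0.05. Among all genes 2.57% were higher with such a p. Of 10 markers of pancreatic acinar cells, which neighbour the liver in dissection, Ctrb1 was at 0.31 ± 0.10 and the median was 0.09. In adult mice the Kupffer list had a median of -0.03 between 60 and 30 min and the stellate list of -0.06, with 0 members of either list at an unadjusted p under 0.05. The test of the difference between the ages gave an unadjusted p under 0.05 for 2 of the 14 Kupffer markers (Cd5l and Folr2) and for 0 of the 15 stellate markers, where 4.28% of all genes had one. The adult values of Cd5l were 0.457, 0.651 and 0.698 at 30 min and 0.878, 0.551 and 0.421 at 60 min, so that the adult 30 min arrays were already under sham.

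**Figure D3:**
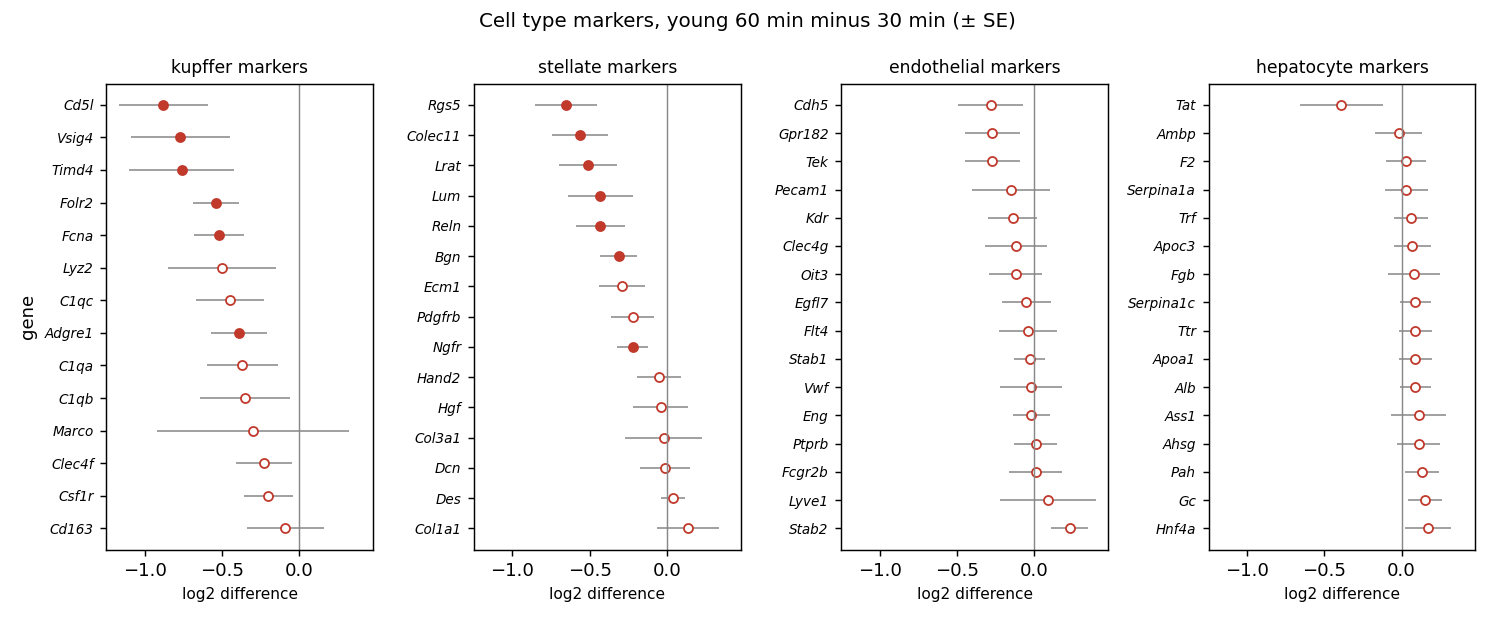
Log2 difference between young 60 and 30 min (± SE from limma, 3 arrays a group) for markers of 4 liver cell types; filled points have an unadjusted p under 0.05, and none passed after adjustment. All 14 Kupffer and 13 of 15 stellate markers lie left of 0, and 14 of 16 hepatocyte markers lie right of it.

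Of 39 cell cycle genes, 33 lay lower at 60 min, with a median that was near 0 without 1 array of 30 min. Mcm5, a subunit of the replicative helicase, had ratios of 3.13, 1.12 and 1.21 at 30 min and 1, 0.96 and 0.508 at 60 min. The groups did not overlap, but replicate 1 of 30 min stood well above the other 5 arrays. The difference of -1.04 ± 0.40 ran from -1.30 to -0.56 with any 1 array left out. Mcm2, of the same complex, was at 1.56, 1.2 and 1.15 against 1.01, 0.915 and 0.679 (difference -0.59 ± 0.17). Tk1 and Tyms, thymidine kinase and thymidylate synthase, which supply thymidine nucleotides, were at -0.34 ± 0.10 and -0.24 ± 0.08, with no overlap in either. Mcm2, Tk1 and Tyms were picked as the members of lowest p. Over the list, 10 of 39 genes lay wholly lower at 60 min, against 5.3% of all genes. Of the 39 genes, 9 had an unadjusted p under 0.05, all lower, against 2.64% of all genes, with a median of -0.22. The list's median log2 ratio was 0.53 on replicate 1 of 30 min, 0.08 and 0.11 on the other 30 min arrays, and 0.13, 0.07 and -0.07 at 60 min. Without replicate 1 of 30 min the median difference was -0.02 and the number at unadjusted p under 0.05 was 3.

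Clock genes lay on either side of 0, and several also differed among the sham arrays, whose title code numbers differ. Nr1d1 and Nr1d2, the REV-ERB repressors of the circadian clock, had the highest differences of the genes named here. Nr1d2 was at 0.171, 0.281 and 0.297 at 30 min and 0.405, 0.692 and 0.717 at 60 min, without overlap, and its difference was 1.27 ± 0.46 (95% interval 0.32 to 2.23; limma adjusted p = 0.945). Nr1d1 was at 0.251, 0.275 and 0.398 against 0.343, 1.15 and 1.16, a difference of 1.35 ± 0.51 with overlap. Sham ratios of Nr1d1 were 1.34, 1.27 and 0.389. The sham array at 0.389 is the one whose title code number is 1, and the others have 5. For Nr1d2 the same sham array was at 0.481 against 1.14 and 1.38. Dbp, a clock output factor chosen for mention after its values were seen, was at 0.13 on that array and at 0.939 and 1.93 on the other sham arrays. It was at 0.108, 0.123 and 0.114 at 30 min and 0.11, 0.216 and 0.254 at 60 min, a difference of 0.66 ± 0.96. Among the young arrays, all those with a number from 1 to 3 had a Dbp ratio of at most 0.134, whatever their group, as did replicate 1 of 60 min with number 4.

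With the code's number as a covariate the difference was 0.83 for Nr1d2, 0.81 for Nr1d1 and -0.46 for Dbp, and with the code's first part as a block 0.69, 0.41 and -0.75. Of the 20 clock genes 2 had an unadjusted p under 0.05 and were higher, and 1 was lower, against 2.57% and 2.64% of all genes. The list's median was 0.06. In adults, where the numbers were 3 at 30 min and 4 at 60 min, Nr1d1 was at 0.644, 0.641 and 0.524 against 2.27, 2.09 and 1.97, a difference of 1.81 ± 0.51. Adult Dbp differed by 3.20 ± 0.96. In that comparison 7 of the 20 clock genes had an unadjusted p under 0.05 and were higher, against 2.06% of all genes. A further 5 were lower, against 6.87%.

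**Figure D4:**
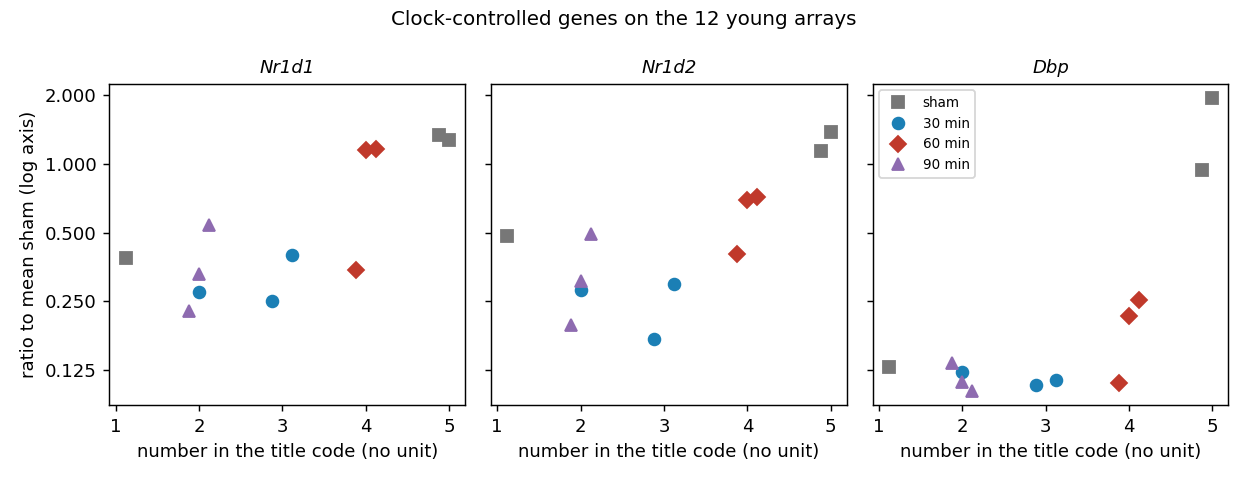
Ratio to the mean of the young sham arrays (log axis) of Nr1d1, Nr1d2 and Dbp against the second number in the sample title's code, for the 12 young arrays; colour and shape give the group, and points of one number are set slightly apart. The sham array with number 1 lies with the 30 and 90 min arrays, at 0.389, 0.481 and 0.13, and the sham arrays with number 5 lie highest.

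Against sham, 8 probe sets (0.0306%) passed at 30 min and 2 (0.00764%) at 60 min in the same limma fit. These comparisons share the young arrays with the one between the times, so their values are only set side by side. Gpcpd1, a glycerophosphocholine phosphodiesterase, fell by 2.05 on the log2 scale at 30 min (adjusted p = 0.00208) and was at -1.15 at 60 min (adjusted p = 0.138). Its ratios were 0.175, 0.359 and 0.222 at 30 min and 0.317, 0.564 and 0.51 at 60 min, against 0.969 to 1.03 in sham liver. Its difference between the times was 0.90 ± 0.25, with overlap, and a second probe set was at 0.70 ± 0.27. Gja4, connexin 37 of arterial endothelium, fell by 1.14 at 30 min and by 1.15 at 60 min (adjusted p = 0.00425 and 0.00922). Its mean ratio was 0.45 at both times (SD 0.0551 and 0.0858, n = 3). The difference between the times was -0.01, with a 95% interval of -0.35 to 0.33, and its sign turned with several single arrays left out.

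Prox1, a homeobox transcription factor of hepatocyte identity, rose by 0.78 at 60 min (adjusted p = 0.0067) and was at 0.45 at 30 min (adjusted p = 0.125). Its ratios were 1.43, 1.29 and 1.37 at 30 min and 1.54, 1.77 and 1.84 at 60 min, so that all 6 were above the sham arrays and the times did not overlap (difference 0.33 ± 0.10). Fosl2, the autophagy gene Atg14, the Rab5 exchange factor Rabgef1 and Enpp2, the lysophospholipase D autotaxin, fell at 30 min by 0.63, 0.97, 0.72 and 0.62. At 60 min they were at -0.41, -0.54, -0.36 and -0.26, and none of the 4 passed. Their differences between the times were 0.22 ± 0.09, 0.43 ± 0.16, 0.36 ± 0.10 and 0.36 ± 0.10, without overlap in any. Over all genes, 5.18% were wholly higher at 60 min. These 4 and Gpcpd1 were picked for low values on the same 30 min arrays, and Prox1 for high values on the same 60 min arrays. That choice by itself favours differences above 0 between the times. Slc25a25, which exchanges ATP-Mg for phosphate across the inner mitochondrial membrane, was at 3.42, 2.93 and 4.13 at 30 min and 1.96, 2.18 and 2.15 at 60 min. All 6 arrays were above sham, the 60 min arrays lay lower without overlap, and the difference was -0.72 ± 0.35.

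Most metabolic lists lay close to the median of all genes in young mice. Of 46 oxidative phosphorylation genes 33 lay above 0, with a median of 0.04 and 0 at an unadjusted p under 0.05. In adults all 46 lay below 0 with a median of -0.33, and 20 had an unadjusted p under 0.05, against 6.87% of all genes. The median of all genes was -0.04 in adults. Of 38 cytochrome P450 genes 30 lay above 0, with a median of 0.11 in young and -0.19 in adult mice. The 18 genes of urea and amino acid breakdown had medians of 0.16 and -0.21, and the 21 acute phase genes of 0.08 and -0.29. For these 4 lists the difference between the ages had an unadjusted p under 0.05 in 6, 8, 5 and 0 genes, against 4.28% of all genes. The young oxidative phosphorylation median was -0.05 without replicate 3 of 30 min. Of 39 proteasome subunits 30 lay below 0 with a median of -0.05, and 20 cytosolic ribosomal proteins had a median of -0.03. Neither sign held: with the code's first part as a block the medians were 0.16 and 0.09, and with its number 0.06 and 0.08. Slc2a2, the glucose transporter GLUT2 of hepatocytes, was at 0.659, 0.732 and 0.599 against 0.783, 0.963 and 0.973 (difference 0.45 ± 0.18), and Slc39a14, a zinc and iron importer, at 0.58, 0.569 and 0.596 against 0.735, 0.807 and 0.856 (difference 0.46 ± 0.20). Both lay closer to sham at 60 min, without overlap, and their mean ratios at 90 min were 0.85 and 0.696.

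Targets of the hypoxia factor HIF, on the list for their known induction by low oxygen, lay within 0.11 of 0 in median with any array left out. Of 22 genes 15 lay below 0, and the median was -0.08. Pfkl, the liver phosphofructokinase, at -0.26 ± 0.08, was the 1 gene with an unadjusted p under 0.05, against 2.64% of all genes that were lower. Among the antioxidant genes, Sod3, the extracellular superoxide dismutase, was at 1.02, 0.995 and 1.03 at 30 min and 0.565, 0.777 and 0.757 at 60 min. Its difference was -0.55 ± 0.17, and its 30 min values lay close to the sham mean of 1. Txnrd1, thioredoxin reductase, was at -0.44 ± 0.13. Other genes among the 12 lowest were the brain-type fatty acid binding protein Fabp7 at -0.93 ± 0.25, Tcim at -0.88 ± 0.37 and the planar polarity cadherin Celsr1 at -0.80 ± 0.38. Those 12 were taken from the genes with an unadjusted p under 0.05 and no overlap.

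Among 9 genes of metallothioneins and zinc handling 3 had an unadjusted p under 0.05 and were higher at 60 min, against 2.57% of all genes, and the other 6 lay below 0, so that the median was -0.15. That median was 0.07 without replicate 2 of 30 min and 0.03 without replicate 1 of 60 min, and the number higher was 1 without replicate 1 of 30 min. The 3 were Slc39a14, Mtf1, the zinc-sensing transcription factor, at 0.22 ± 0.08, and Mt3, a brain-type metallothionein, at 0.22 ± 0.09, all without overlap. Over the list, 3 of 9 genes lay wholly higher and 1 wholly lower, against 5.18% and 5.3% of all genes. Nr1i2, the xenobiotic receptor PXR, at 0.41 ± 0.15, was the 1 of 19 CAR target and phase 2 genes with an unadjusted p under 0.05. Among all genes 2.57% were higher with such a p. Of that list of 19, 16 lay above 0. Mdm2, the ubiquitin ligase of p53, at -0.28 ± 0.10, was the 1 of 15 growth arrest genes with such a p, against 2.64% of all genes that were lower. Of 24 genes of fatty acid oxidation 2 were lower with such a p, against 2.64% of all genes, and the list's median was -0.03. The 2 were Ucp2, a mitochondrial uncoupling protein, at -0.32 ± 0.13, and the lipid droplet protein Plin2, at -0.28 ± 0.13. None of the 22 bile acid, 21 ER stress, 13 energy sensing, 13 MAPK feedback and 15 growth hormone genes had an unadjusted p under 0.05 in the limma fit, and their medians were 0.07, -0.02, -0.02, -0.10 and 0.04.

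**Figure D5:**
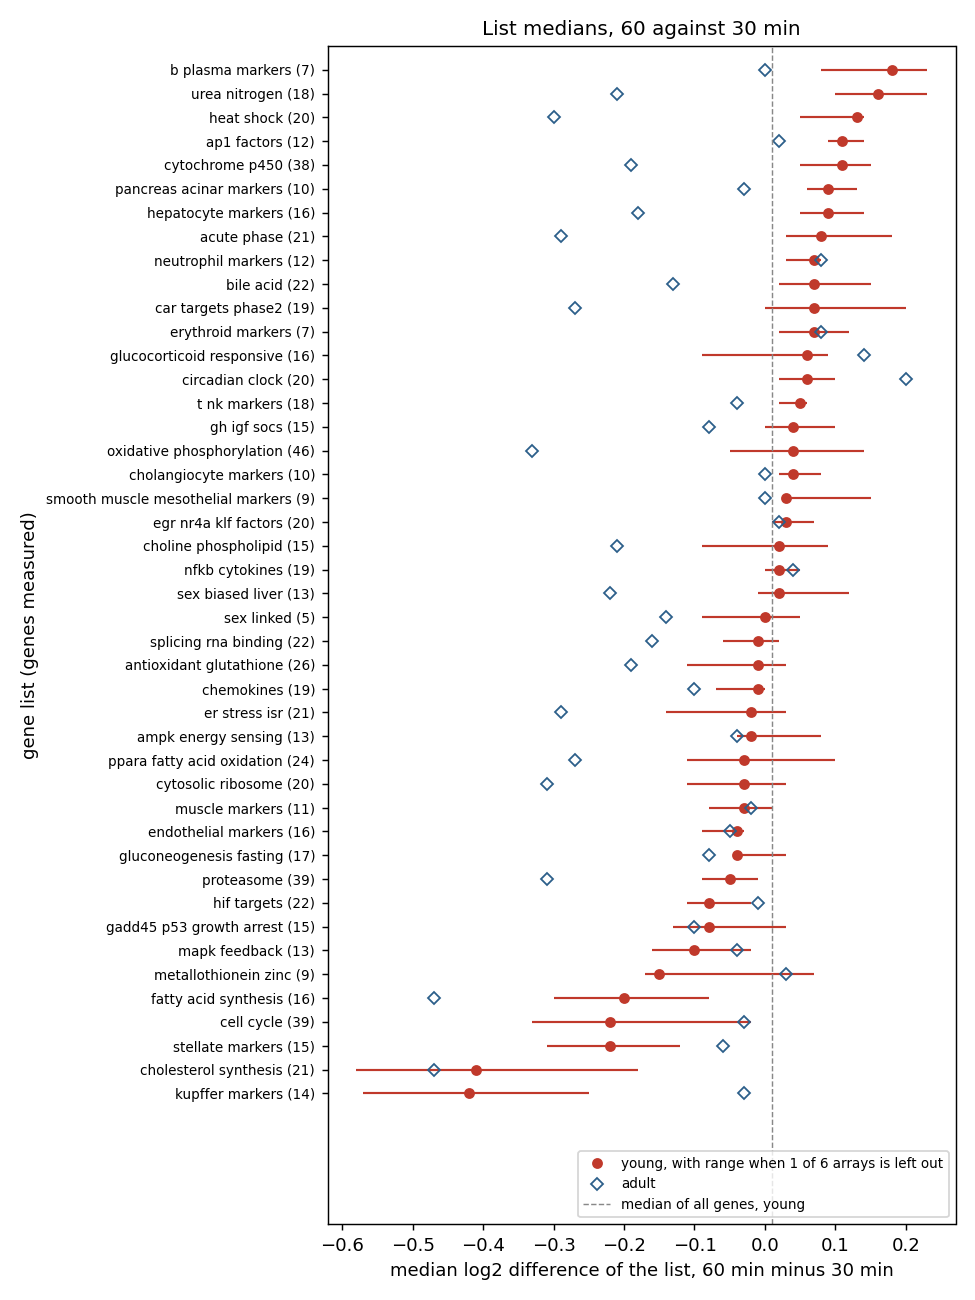
Median log2 difference (60 min minus 30 min) of each of the 44 gene lists; filled circles are young mice, with a line from the lowest to the highest value when any 1 of the 6 arrays is left out, and open diamonds are adult mice. Kupffer markers (-0.42), cholesterol synthesis (-0.41), stellate markers (-0.22) and cell cycle (-0.22) are lowest in young mice, and the dashed line is the median of all genes, 0.01.

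Between the ages, the step from 30 to 60 min had 0 probe sets (0%) at an adjusted p under 0.05 in limma for the difference (lowest adjusted p 0.951), and 1053 (4.02%) at an unadjusted p under 0.05. In adults alone it had 0 (0%) with a lowest adjusted p of 0.629, and 2063 (7.88%) at an unadjusted p under 0.05. Across the 14351 genes, which are not independent of each other, the young and adult differences had a Pearson r of 0.29 and a Spearman rho of 0.19. They share no array, but the title code number was 4 at 60 min in both ages. The 4 named genes with the lowest p for the difference were Lect2, a hepatocyte-made chemotactic protein, at 0.14 in young and -0.86 in adult mice, Amz1 at 0.29 and -0.26, the phosphodiesterase Pde1a at 0.19 and -0.45, and Cyp1a2, a P450 of drug metabolism, at 0.12 and -0.41. In young mice Lect2 was at 0.818, 0.913 and 0.828 against 0.96, 0.979 and 0.887, which overlap, and in adults at 0.84, 0.99 and 1.31 against 0.54, 0.6 and 0.56, which do not. Dnajb1 was at 0.51 in young and -0.47 in adult mice, a difference of -0.98 ± 0.27. The heat shock list had medians of 0.13 and -0.30, and 6 of its 20 genes had an unadjusted p under 0.05 for the difference, against 4.28% of all genes. Tnf, the inflammatory cytokine, was at -0.30 ± 0.13 in young and 0.38 ± 0.13 in adult mice.

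Probe sets without a gene name gave the values farthest from 0 on the high side. These were picked with their values in view. The highest of all, at 1.70 ± 0.50, had ratios of 0.226, 0.363 and 0.485 at 30 min and 0.684, 1.54 and 1.3 at 60 min. A group of 7 probe sets, whose values agreed within 0.583% on each of the 6 arrays and which may therefore measure the same transcript, lay at 1.55 to 1.56. Their median ratios were 1.11, 0.35 and 0.55 at 30 min and 1.93, 1.53 and 1.83 at 60 min, against 0.678, 1.42 and 0.905 in sham liver. Replicate 1 of 30 min stood above the other 30 min arrays and under all 60 min arrays. Without it these 7, and no other probe set, passed in limma (adjusted p = 0.0338). They were at -0.61 in adults.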

How the data were processed

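Liver RNA was hybridized to 24 Affymetrix 3' arrays, 1 mouse per array as far as the design text goes (n = 3 in each of 8 groups). The authors deposited linear ratios to the mean sham array of the same age, made with RMA per the submitters' processing notes, with no version given. In the deposited ratios the sham mean was 1 within 2e-07. RefSeq accessions were named through a supplied table (assembly GRCm38.p6): 15228 probe sets had 1 symbol and 10952 none. On the log2 scale, 8 group means were fitted over all 24 arrays with limma 3.58.1 under R 4.3.3 (16 residual and 4.65 prior degrees of freedom), two-sided, with Benjamini-Hochberg adjustment over 26180 probe sets and a threshold of 0.05. The code was tested on simulated data. No filter on dim probe sets was possible without brightness, and the number of arrays limits the precision.

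Lists were counted with 1 probe set per gene (14351 genes; curated accession first, then the lowest number; 661 genes had several), and 44 lists were used. Named genes were the 12 highest and 12 lowest with an unadjusted p under 0.05 and no overlap, the 3 members of lowest p from each list, genes that passed against sham, and the 4 genes of lowest p for the difference between the ages, by the best probe set. Dbp, Bag3, Hsf1, Cyp51, Lss, Fos, Col1a1 and Col3a1 fall outside this rule and were picked with their values in view. The members and lists were chosen with earlier results of these data known. Errors are limma's standard errors except where SD is given. The alternatives tried were 1 probe set per gene, young arrays or the 6 arrays alone, quantile or median scaling, either part of the title code, array weights, log2(ratio + 0.25), a robust prior and each array left out. Some genes are not reported here one by one, though they count in the lists.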

Additional observations from a re-analysis of the deposited data

How the results depend on the processing

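No probe set passed between young 60 and 30 min in limma under any alternative except one: without replicate 1 of 30 min 7 passed, and with any other of the 6 arrays left out 0 did, so that the range was 0 to 7. The difference between the ages likewise had 0 to 7 with an array left out and 0 otherwise, and adults had 0 throughout. The share of probe sets at an unadjusted p under 0.05, 5.08% in young mice, was 3.27% without replicate 1 and 8.35% without replicate 2 of 60 min. In adults it was 1.55% after quantile normalization, 4.5% with the title code number and 2.65% to 15.2% with an array left out. For the difference between the ages it was 1.6% after quantile normalization, 9.89% with the title code block, and 2.78% to 6.87% with an array left out.

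Over all 44 lists 35 of 748 values of the median moved by over 1 SD between arrays. Those of the 6 lists described most closely (heat shock, cholesterol synthesis, cell cycle, Kupffer, stellate and clock) were: heat shock to 0.27 with the block, 0.07 without the 2 arrays that share the first part of the code and 0.05 to 0.14 with 1 array left out; cholesterol synthesis to 0.15 with the block and -0.14 with the number; cell cycle to -0.02 without replicate 1 of 30 min, in a range from -0.33; Kupffer markers to -0.17 without the 2 arrays. Stellate and clock medians stayed within 1 SD. The cause was not tested.

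Of 156 genes tracked, 16 changed sign at least once, in 26 of 2649 values. With the block these were Hsp90aa1 (0.01), Hamp (-0.47), Acly (0.01), Psmd7 (0.10), Rpl21 (0.06), Cldn7 (-0.01), Atp2a1 (0.01), Lss (0.07) and Dbp (-0.75, and -0.46 with the number). Without the 2 arrays they were Uty (0.05), Xist (-0.01), Mpo (-0.07), Wt1 (-0.05), Lrrn4 (-0.05) and Gja4 (0.18, and 0.06 with the number). With 1 array left out they were Rpl32 (-0.01 to 0.25), Xist (lowest 0.00), Mpo (-0.01 to 0.25), Wt1 (-0.04 to 0.17), Lrrn4 (-0.04 to 0.19) and Gja4 (-0.15 to 0.12). The titles carry no replicate number, so no fit used one. The code's first part, used as a block above, joins 1 young 30 min with 1 young 60 min array. It also pairs each adult 30 min with an adult 60 min array. The other young 30 min arrays share it with a sham array, and the other young 60 min arrays with sham and 90 min arrays. The young block values therefore draw on the young sham and 90 min arrays too and are not differences within the young pair. No adult array shares the first part with a young array. Between that pair Hsp90aa1, Acly, Psmd7 and Rpl21 were at -0.48, -0.22, -0.48 and -0.31, and Hamp and Cldn7 at 0.06 and 0.27. The alternatives with the title code number or without the 2 arrays, and those for lists and adults, were chosen after seeing the data.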
